A study of Caenorhabditis elegans with 4 samples.

Results

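The col genes encode collagens of the worm cuticle, and 149 of them had a row in at least 1 of the 2 tables of this series of Caenorhabditis elegans larvae. They are the rows whose sequence name carries a symbol made of col- and a number in the WBcel235 annotation, and they were 149 of 17491 gene names. In strain AM11 both TOP-2 and DPY-27 were depleted through degron::GFP tags on top-2 and on dpy-27, and in strain AM12 both TOP-1 and DPY-27 were depleted through the same tag on top-1 and on dpy-27. These are called TOP-2 depletion and TOP-1 depletion below, and DPY-27 was removed in either. Each depletion has 2 libraries of poly(A)-selected RNA from L2/L3 larvae, which had grown for 24 h at 22 °C after hatching without food and then spent 2 h on 1 mM auxin. The authors set each against strain CA1200, likewise after 2 h of auxin, whose libraries are not analysed here as samples. Auxin leads to the breakdown of proteins with a degron tag in animals that make the plant protein TIR1, and the labels do not name the promoter that drives TIR1 in these strains. TOP-2 and TOP-1 are topoisomerases, and DPY-27 belongs to condensin DC, the complex that lowers expression from the X chromosomes of hermaphrodites. All groups share the auxin. Without a strain that loses DPY-27 alone, its part and that of the topoisomerase cannot be told apart here.

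The cuticle is a layered coat of short collagens that the hypodermis and seam cells make anew before each moult. The chains carry Gly-X-Y repeats, are hydroxylated on proline, fold into trimers in the endoplasmic reticulum, are trimmed by proteases and are then cross-linked by tyrosine bonds outside the cell. In C. elegans larvae collagen transcripts are known to come in waves within each larval stage, with different collagens at different times before the moult. Some are known to be kept for one stage, such as col-19, a collagen of the adult cuticle. Not every gene of this name makes a cuticle collagen, since col-99 encodes a membrane-spanning collagen.

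The authors deposited a mean normalized count, a log2 fold change of depletion over control with its standard error (SE) and a p-value for each gene, and no value per library. Levels below are therefore means over the depletion and control libraries of a comparison, and how many libraries show a direction cannot be told. A call is an adjusted p under 0.05 in the authors' DESeq2 test, adjusted over the whole table, and every adjusted p against the control below is of that kind. Of 156 col genes in the annotation, 143 had a row in both tables, 1 in the TOP-2 table alone and 5 in the TOP-1 table alone, while col-7, col-36, col-102, col-127, col-135, col-183 and col-185 had none. An adjusted p was given for 122 members in the TOP-2 table and 124 in the TOP-1 table. A mean of at least 10 was reached by 97 and 102 members. Such a floor keeps a gene that is very low in the control only where it is high after the depletion, so medians over the members above it describe those members alone. The submitters call the 2 libraries biological replicates and name no separate cultures, so the p-values measure only the spread between libraries.

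Members made up 2.95% of the summed mean normalized counts in the TOP-2 table and 3.01% in the TOP-1 table. Their means ran from 0.412 to 39200 in the TOP-2 table and from 0.405 to 37511 in the TOP-1 table, and 47 members stayed under 10 in every table that lists them. Per kb of coding length the most abundant were col-10 and col-125, with 43730 and 43702 mean normalized counts per kb in the TOP-2 table, and 42529 and 40247 in the TOP-1 table. After them, by the mean of both tables, came col-107, col-160, col-17, col-166, col-176 and col-103. Of these 8, col-160 was lower in the authors' deposited table of TOP-2 depletion, by -1.14 ± 0.44 (log2 fold change ± SE, adjusted p 0.048), and col-17 in that of TOP-1 depletion, by -1.12 ± 0.29 (adjusted p 0.00102). With the autosomal median subtracted the adjusted p of col-160 was 0.0943. The rest of these 8 passed neither test. With the X median subtracted, 2 of them passed as lower, col-176 after TOP-2 depletion at -1.34 (adjusted p 0.0393) and col-166 after TOP-1 depletion at -1.05 (adjusted p 0.00836). At the top of the order col-10 stood at 0.22 ± 0.42 and 0.24 ± 0.38 in the authors' deposited tables of TOP-2 and TOP-1 depletion. Among the 13 members with a mean of at least 10000 after TOP-2 depletion, 3 were lower, col-98 at -1.31 ± 0.44 and col-42 at -1.19 ± 0.45 besides col-160, and among the 14 after TOP-1 depletion, 2 were lower, col-41 at -0.94 ± 0.31 besides col-17, in the authors' deposited tables. None of them was higher in the authors' DESeq2 tests (1 and 0 at an unadjusted p under 0.05).

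After TOP-2 depletion, 25 of the 122 tested members were lower than in the control and 12 were higher, and 85 did not pass. Among all genes tested, 7.47% were lower and 14.1% higher (21.5% in either direction), so the members, at 20.5% lower and 9.84% higher, leaned to the lower side while the table as a whole leaned to the higher side. The 97 members with a mean of at least 10 had a median log2 fold change of -0.78, against -0.03 for all 13203 genes above that floor, and over every row with a value the members' median was -0.63. The called falls ran from -1.14 to -4.26, with a median of -2.38, and 7 of them were -3 or lower. The called rises ran from 1.23 to 3.79, with a median of 1.78.

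After TOP-1 depletion, 23 of 124 tested members were lower and 16 higher, with 85 not passing. The members were thus 18.5% lower and 12.9% higher, beside 12.8% lower and 17.1% higher among all genes tested (29.9% in either direction). The median of the 102 members above the floor was -0.50, against -0.04 for all 13283 genes, but over every row it was -0.18. Called falls ran from -0.94 to -5.04 with a median of -2.08. The called rises were spread more widely than after TOP-2 depletion, from 0.89 to 7.27 with a median of 3.08. Of the 16, 8 were 3 or higher, among them col-44, col-19 and col-8 at means of only 20.8, 10.5 and 3.80. After TOP-2 depletion no member of mean under 10 was called. Both comparisons share the control libraries, so the likeness of their values is no independent support.

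**Figure D1:**
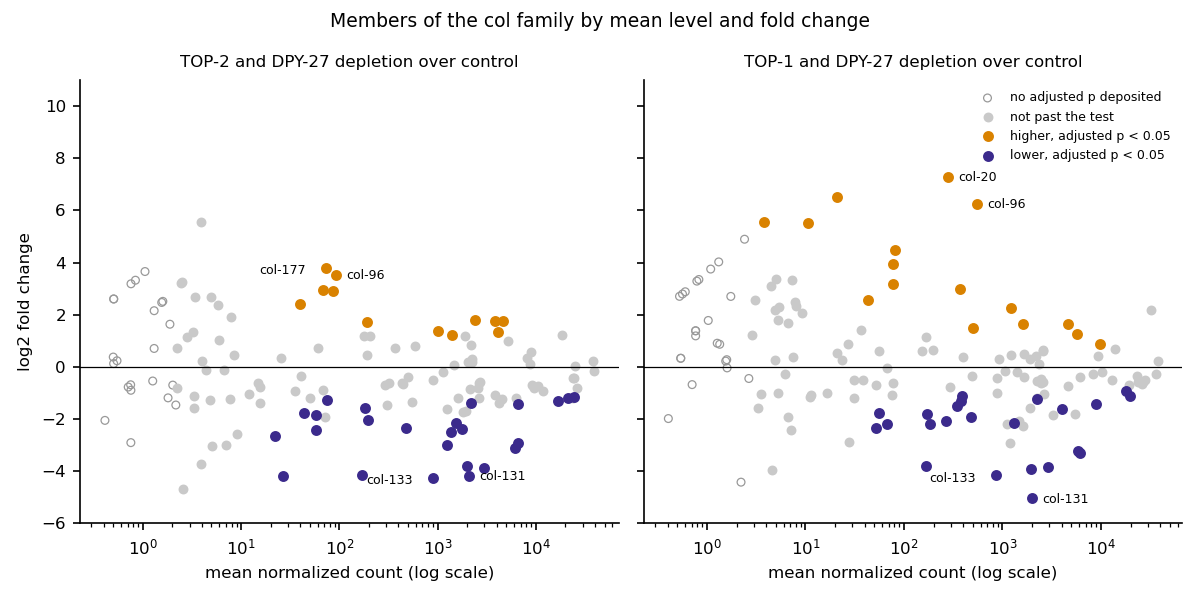
Log2 fold change over the control against the mean normalized count (log scale) of every member, after TOP-2 depletion (left) and after TOP-1 depletion (right), 1 point per gene. Purple points (25 and 23) are lower and orange points (12 and 16) higher at an adjusted p under 0.05, and no orange point lies above a mean of 10000.

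In bulk larvae, fewer cells of a type and less RNA per cell cannot be told apart. Markers of the hypodermis, which makes the cuticle, were lower or did not pass: 2 of 6 fell after TOP-2 depletion (list median -1.02, range -1.80 to 0.03, summed mean normalized count 7228), and 4 of 6 after TOP-1 depletion (median -1.37, range -3.12 to 0.32, summed mean normalized count 6660). Of 4 seam cell markers none passed after TOP-2 depletion in the authors' DESeq2 test (0 at an unadjusted p under 0.05, list median -0.40), and 1 fell after TOP-1 depletion (median -0.83). All 6 pharynx markers rose after either depletion (medians 5.76 and 5.29), as did 7 and 6 of 8 germline markers (medians 4.17 and 3.37). The medians of 6 body wall muscle markers were 0.25 and 0.31 (1 higher in each table), of 6 intestine markers 0.28 and 0.63 (1 and 2 higher), and of 6 neuron markers -0.47 and -0.67 (1 and 3 lower). The hypodermis list holds a collagen gene, dpy-7, and 3 genes of the regulator list below. The part of these lists in the collagen values was not tested.

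Several members were far below the control after either depletion. The lowest after TOP-1 depletion was col-131 (C39E9.3, chromosome IV), with a mean of 2103 in the TOP-2 table and 1985 in the TOP-1 table. It stood at -4.18 ± 0.63 (adjusted p 1.24e-09) and -5.04 ± 0.34 (adjusted p 3.00e-47) in the authors' deposited tables of TOP-2 and TOP-1 depletion, falls of 18.1-fold and 32.9-fold. Members of like level fell far as well. The authors' deposited tables of TOP-2 and TOP-1 depletion had col-153 (F17C11.3) at -3.86 ± 0.48 and -3.83 ± 0.42, with means of 2986 and 2910. In the same order, the X-linked col-172 (F38B6.5) was at -3.81 ± 0.50 and -3.93 ± 0.32 in the authors' deposited tables, with means of 2003 and 1928. A less abundant member, col-38 (F54C9.4), was at -4.14 ± 0.49 and -3.81 ± 0.49 in the authors' deposited tables, with means of 169.5 and 167. More abundant members were also among those that fell. One was col-118 (T11B7.3), with means of 6510 and 6120, at -2.93 ± 0.37 and -3.30 ± 0.37 in the authors' deposited tables of TOP-2 and TOP-1 depletion. Another was col-34 (F36A4.10), with means of 6116 and 5859, at -3.10 ± 0.43 and -3.21 ± 0.35 in the authors' deposited tables.

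For 2 further members the fall was as deep but the error wide. The lowest among called members after TOP-2 depletion was col-133 (F52B11.4), at -4.26 ± 1.61 (adjusted p 0.0403), and the authors' deposited table of TOP-1 depletion had it at -4.16 ± 1.25 (adjusted p 0.00466). With the autosomal median subtracted its adjusted p after TOP-2 depletion was 0.0511. In the authors' deposited tables col-162 (Y2H9A.3) was at -2.98 ± 0.72 after TOP-2 depletion (adjusted p 0.000351) and at -2.91 ± 1.26 after TOP-1 depletion (adjusted p 0.0662). Its fold changes were nearly the same, and the larger error after TOP-1 depletion left it short of the threshold. Smaller falls passed in both of the authors' deposited tables for col-79, at -2.03 ± 0.55 and -2.18 ± 0.46, and for col-75, at -1.86 ± 0.65 and -2.33 ± 0.58. Of the rest of the members named for their falls, col-110 was at -1.93 ± 0.79 and -2.20 ± 0.66 in the authors' deposited tables, past the test after TOP-1 depletion (adjusted p 0.0621 and 0.00479), and col-106 at -2.42 ± 0.89 and -0.60 ± 1.66, past it after TOP-2 depletion (adjusted p 0.0345 and 0.833). With the autosomal median subtracted the adjusted p of col-106 after TOP-2 depletion was 0.0509.

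**Figure D2:**
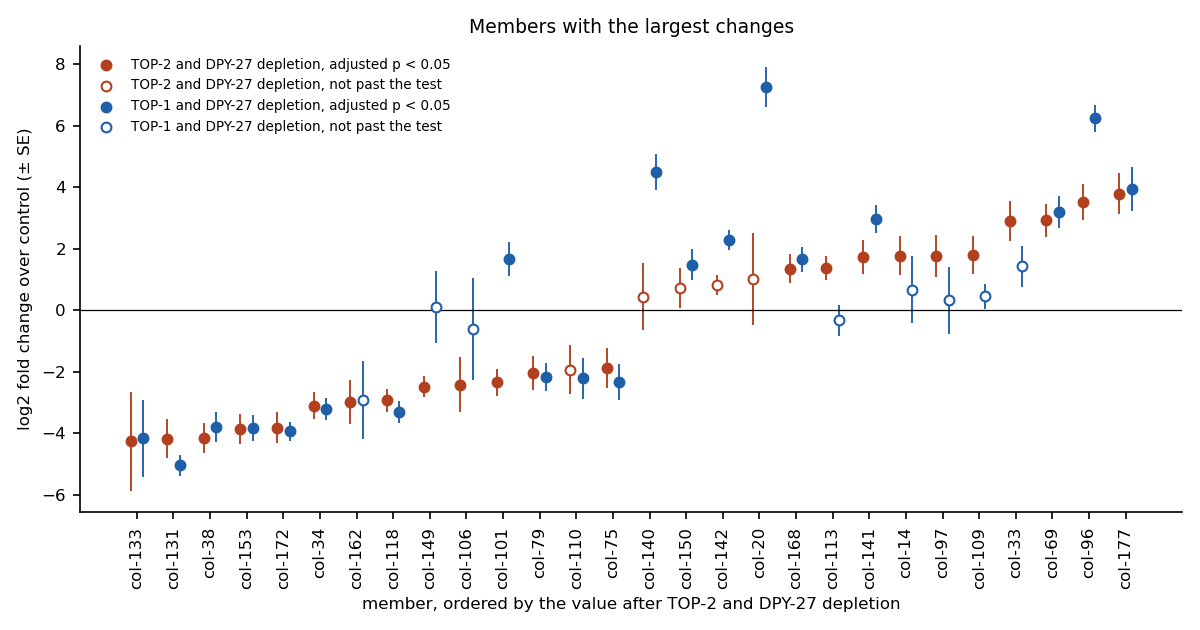
Log2 fold change over the control (points, with the SE as bars) of the members with the largest called changes in either table among those of mean at least 50, after TOP-2 depletion (red) and TOP-1 depletion (blue), with filled points at an adjusted p under 0.05. Called members of lower mean are left out, such as col-44, col-19 and col-8 after TOP-1 depletion. Another is col-43, at -4.17 ± 0.99 after TOP-2 depletion in the authors' deposited table, with a mean of 26.5. At the left col-131, col-38, col-153, col-172, col-34 and col-118 lie between -2.93 and -5.04 in both colours, while col-20 and col-140 are far above 0 in blue alone.

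The members with the largest rises past the test in both tables were of lower level. The highest among called members after TOP-2 depletion was col-177 (F59F3.2, X), with a mean of 73.4 in the TOP-2 table and 78.1 in the TOP-1 table. It was at 3.79 ± 0.66 (adjusted p 2.25e-07) and 3.94 ± 0.73 (adjusted p 9.10e-07) in the authors' deposited tables of TOP-2 and TOP-1 depletion. Next to it in level, col-69 (K01A2.7, chromosome II) was at 2.93 ± 0.54 and 3.18 ± 0.52 in the authors' deposited tables. Another riser, col-96 (Y41C4A.19, chromosome III), was at 3.53 ± 0.59 (adjusted p 4.67e-08) and 6.25 ± 0.44 (adjusted p 4.14e-42) in the authors' deposited tables, with means of 92.3 in the TOP-2 table and 552 in the TOP-1 table. Rises of 11.6-fold and 75.9-fold correspond to these values, and their difference is taken up below. At a smaller size, the authors' deposited tables had col-141 at 1.74 ± 0.56 and 2.98 ± 0.45, and col-168 at 1.35 ± 0.47 and 1.66 ± 0.41, each past the test in both. With the X median subtracted col-168 passed in neither (adjusted p 0.259 and 0.0598).

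A set of members passed as higher after TOP-2 depletion and not after TOP-1 depletion. After TOP-2 and after TOP-1 depletion, col-109 was at 1.79 ± 0.63 and 0.45 ± 0.42, col-97 at 1.78 ± 0.68 and 0.32 ± 1.09, and col-14 at 1.77 ± 0.63 and 0.66 ± 1.09 in the authors' deposited tables. The authors' deposited tables further had col-113 at 1.37 ± 0.39 and -0.33 ± 0.50, and col-33, at a mean of 86.5 in the TOP-2 table, at 2.91 ± 0.65 and 1.43 ± 0.66. None of these 5 differed between the depletions by the test of the difference itself (lowest adjusted p 0.601, for col-113).

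After TOP-1 depletion the largest rise of any member was that of col-20 (F11G11.11, chromosome II), which lies between col-17 and col-73. The authors' deposited table of TOP-2 depletion had it at 1.02 ± 1.50 (adjusted p 0.7) with a mean of 5.93, and that of TOP-1 depletion at 7.27 ± 0.65 (154-fold, adjusted p 8.95e-27) with a mean of 278. A like picture was seen for col-140 (F26F12.1, chromosome V), at 0.45 ± 1.08 with a mean of 8.46 in the authors' deposited table of TOP-2 depletion, and at 4.49 ± 0.58 with a mean of 81.9 in that of TOP-1 depletion. Members of low level, col-44, col-19 and col-8, also passed as higher after TOP-1 depletion. In the authors' deposited table of TOP-2 depletion their means were 2.44, 2.53 and 0.759, and none passed. That of TOP-1 depletion, also the authors' deposited table, had them at 6.53 ± 1.72, 5.52 ± 1.80 and 5.55 ± 2.27 with means of 20.8, 10.5 and 3.80. The adult collagen col-19 is among these 3, and whether the control libraries held any read of them cannot be seen. After TOP-1 depletion 2 members of chromosome V rose at higher level: the authors' deposited tables had col-142 at 0.82 ± 0.32 after TOP-2 depletion (adjusted p 0.0531, or 0.0214 with the autosomal median subtracted) and at 2.27 ± 0.32 after TOP-1 depletion (adjusted p 6.56e-11). For col-150 the authors' deposited tables gave 0.72 ± 0.64 after TOP-2 depletion (adjusted p 0.476) and 1.49 ± 0.50 after TOP-1 depletion (adjusted p 0.014).

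To set the depletions against each other, the fold change of the TOP-1 depletion was subtracted from that of the TOP-2 depletion on the log2 scale, so that the shared control drops out. The SE of this difference was taken as if both fold changes were independent, which overstates it, and p-values from a Wald z were adjusted by Benjamini-Hochberg over 13027 genes whose mean was 10 or more in both of the tables. Of 97 members tested 1 was lower after TOP-2 than after TOP-1 depletion and none higher (at an unadjusted p under 0.05, 6 lower and 1 higher), beside 0.0461% of all genes lower and 0.0691% higher. The member was col-101 (K02D7.3, chromosome IV). It stood in the authors' deposited tables at -2.34 ± 0.44 after TOP-2 depletion (adjusted p 2.00e-06) and at 1.66 ± 0.55 after TOP-1 depletion (adjusted p 0.0118), below the control in one and above it in the other. The difference was -4.001 ± 0.70 (adjusted p 0.000175), and its mean normalized count was 483 in the TOP-2 table and 1617 in the TOP-1 table, which were normalized separately.

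Other members had large differences that did not pass. The difference of col-96 was -2.71 ± 0.74 (adjusted p 0.0915), that of col-80 -1.91 ± 0.56 (adjusted p 0.199) and that of col-142 -1.46 ± 0.46 (adjusted p 0.306). The authors' deposited tables had col-80 (C09G5.5) at -2.38 ± 0.41 after TOP-2 depletion and at -0.47 ± 0.38 after TOP-1 depletion. With a correlation of 0.5 assumed between the fold changes for their common control, 5 members passed, col-101, col-96, col-80 and col-142 as lower after TOP-2 depletion and col-113 as higher. Among abundant members the widest gap was that of col-176 (ZC373.7, X), with means of 9485 in the TOP-2 table and 31873 in the TOP-1 table. It stood at -0.80 ± 0.50 and 2.17 ± 1.13 in the authors' deposited tables, neither past the test as deposited (after TOP-2 depletion -1.34 and an adjusted p of 0.0393 with the X median subtracted), and its difference of -2.97 ± 1.24 did not pass either (adjusted p 0.805). For col-149 the authors' deposited tables gave -2.48 ± 0.34 (adjusted p 1.12e-11) and 0.11 ± 1.16, a difference of -2.60 ± 1.21 (adjusted p 0.964). The floor kept col-20 and col-140 out of this test. With the floor asked of only 1 of the tables, a setting chosen after seeing the data, their differences were -6.25 ± 1.63 (adjusted p 0.0633) and -4.04 ± 1.23 (adjusted p 0.252).

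**Figure D3:**
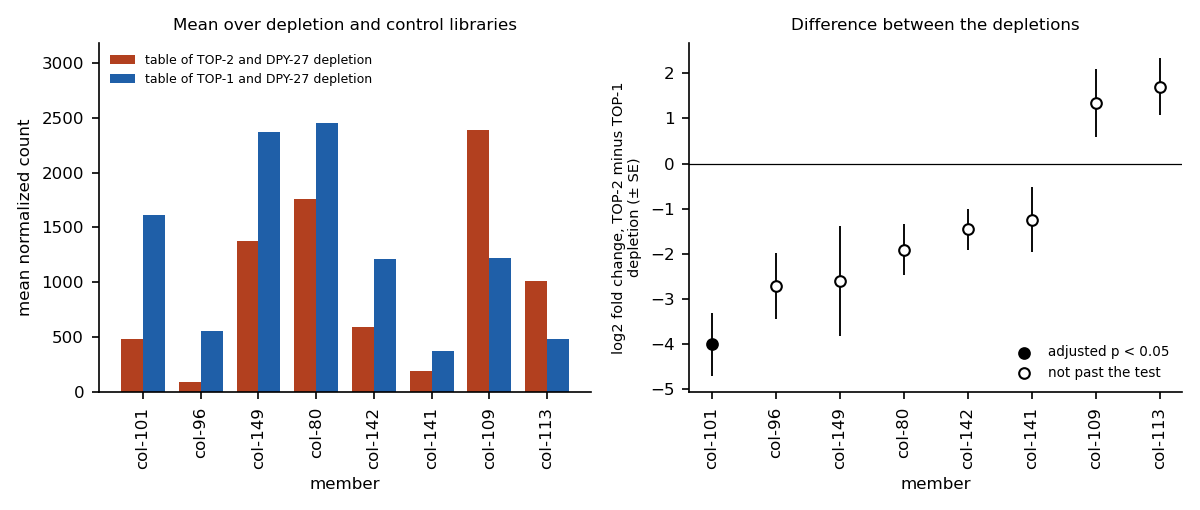
Mean normalized count over the depletion and control libraries of each table (left, TOP-2 in red, TOP-1 in blue) and log2 fold change after TOP-2 minus that after TOP-1 depletion with its SE (right), for the 8 members with the smallest p of the difference among called members of mean at least 50. Only col-101, at -4.001, has a filled point (adjusted p under 0.05), and its mean is 483 in the TOP-2 table and 1617 in the TOP-1 table.

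At the median the errors of the members were larger than those of all genes, and other cuticle collagens shared this in part. Those named for body shape had SEs after TOP-2 depletion such as 0.62 for sqt-1 and 0.59 for dpy-7. After TOP-1 depletion these 2 were at 0.33 and 0.46. At means from 1000 to under 10000, median SEs were 0.625 for members against 0.346 for all genes after TOP-2 depletion. In that class they were 0.445 against 0.329 after TOP-1 depletion. At means of 100 or more, the median SE of the log2 fold change was 0.566 for 75 members after TOP-2 depletion, against 0.374 for all 9352 genes, and 0.456 for 77 members after TOP-1 depletion, against 0.362 for all 9272 genes. An SE above 1, a limit chosen after the values were seen, was found after TOP-2 depletion for 4 of the 75 members (5.33%), col-133, col-146, col-157 and col-180, against 19 of all 9352 genes (0.203%). After TOP-1 depletion it was found for 17 of the 77 members (22.1%), against 63 of all 9272 genes (0.679%). A large SE at a high mean reflects a spread between the libraries of a comparison that is large for the level. Without a value per library the spread within each group cannot be read directly. The control libraries were common to both comparisons, and only 3 members had an SE above 1 in both. In which group the spread lay was not tested. The 17 members were col-12, col-13, col-14, col-39, col-77, col-92, col-97, col-104, col-130, col-133, col-146, col-149, col-156, col-161, col-162, col-176 and col-180. Their SEs lay between 0.338 and 1.61 after TOP-2 depletion, with a median of 0.701. After TOP-1 depletion, by which they were picked, their SEs lay between 1.03 and 1.58, with a median of 1.17. The other 58 members of mean at least 100 in both tables had median SEs of 0.520 after TOP-2 depletion and 0.419 after TOP-1 depletion.

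This spread bears on what could be called. Of the 17, 7 passed after TOP-2 depletion, 5 lower and 2 higher, and after TOP-1 depletion col-133 alone passed. Because the 17 were picked for a wide SE after TOP-1 depletion, fewer calls there follow in part from that choice. A further 8 of them were at -1 or lower after TOP-1 depletion without passing, such as col-156 at -2.18 ± 1.11 in the authors' deposited table. A collagen that misses the threshold in this table is thus not shown to have stayed level. Tandem neighbours, col-12 and col-13 are known to encode near-identical proteins, and reads may not be divided reliably between them. The authors' deposited table of TOP-2 depletion had them at -1.73 ± 0.71 (adjusted p 0.0644) and -2.14 ± 0.69 (adjusted p 0.013), and that of TOP-1 depletion at -2.27 ± 1.37 (adjusted p 0.216) and -2.07 ± 1.26 (adjusted p 0.218).

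**Figure D4:**
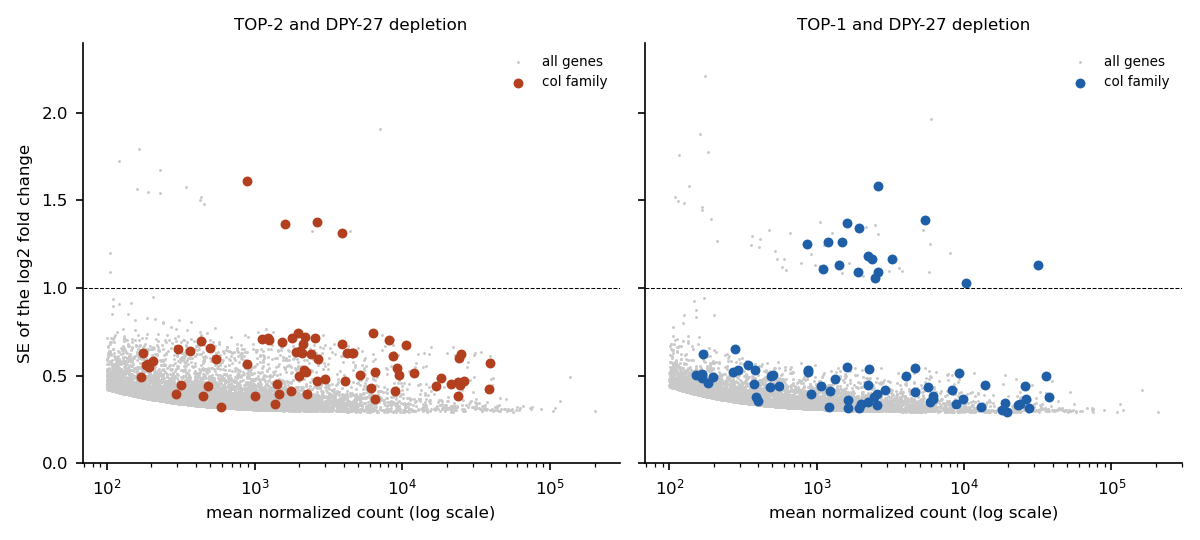
SE of the log2 fold change against the mean normalized count (log scale) for genes with a mean of at least 100, with members of the col family in colour and all genes in grey, after TOP-2 depletion (left) and TOP-1 depletion (right). Above the dashed line at an SE of 1 lie 4 of 75 members on the left and 17 of 77 on the right.

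Condensin DC acts on the X, so members were also read by chromosome. Of the 149 members 25 were on the X. After TOP-2 depletion 4 of 22 tested X members were higher (18.2%) and 2 lower (9.09%), beside 24.5% higher and 2.27% lower among 2330 X genes tested. After TOP-1 depletion 7 of 23 were higher (30.4%) and 2 lower (8.70%), beside 34.5% higher and 3.57% lower among 2325 X genes. Above the floor the X members had a median of 0.11 (n = 16) after TOP-2 depletion and 0.51 (n = 18) after TOP-1 depletion, against 0.54 and 0.68 for all X genes. Autosomal members had medians of -0.89 (n = 81) and -0.59 (n = 84), against -0.13 and -0.14 for all autosomal genes. The X members thus stood above the autosomal members by 1.00 and 1.10 at the median, beside shifts of 0.67 and 0.82 for all genes, and members of either kind had lower medians than the genes of their own chromosomes. With a mean of at least 100 the shifts of the members were 0.87 and 0.90, and the shifts of all genes were not computed at that floor. On chromosome I none of 14 tested members was higher after TOP-2 depletion (1 at an unadjusted p under 0.05 in the authors' DESeq2 test) and 2 were lower, beside 10.5% higher and 6.32% lower among all 2280 genes tested there. None of 13 was higher after TOP-1 depletion (0 at an unadjusted p under 0.05) and 5 were lower, beside 9.71% higher and 16.02% lower among 2266 genes. Every other chromosome had a higher member in each table, but chromosome I did not stand alone in having few. On chromosome IV 1 of 32 tested members was higher after TOP-1 depletion (3.13%, beside 14.6% of all genes tested there). On chromosome V it was 1 of 28 after TOP-2 depletion (3.57%, beside 14.6%). On chromosome III 2 of 11 tested members (18.2%) were higher after TOP-2 depletion and 2 of 12 (16.7%) after TOP-1 depletion. Among all genes tested there the shares were 8.99% and 8.92%, and counts this small do not set the chromosome apart.

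Many col genes lie side by side. With at most 2 other protein-coding genes allowed between them, 53 col genes of the annotation fell into 22 groups of neighbours, of which 15 in each table had 2 or more members above the floor. Within these 15 the gap between the highest and the lowest log2 fold change ran from 0.24 to 6.004 after TOP-2 depletion, with a median of 0.82, and from 0.19 to 8.38 after TOP-1 depletion, with a median of 1.195. On the X, every member of the row from col-167 to col-170 had a value above 0. Its members stood in the authors' deposited table of TOP-2 depletion at 0.59 ± 0.42, 1.35 ± 0.47, 0.98 ± 0.50 and 1.23 ± 0.45 in the order of their numbers, col-168 and col-170 passing. The authors' deposited table of TOP-1 depletion had them at 0.89 ± 0.36, 1.66 ± 0.41, 1.26 ± 0.43 and 0.31 ± 0.40, with the first 3 passing. A value above 0 was common on the X: 78.3% of its genes above the floor had one after TOP-2 depletion and 78.6% after TOP-1 depletion. The upper quartiles of these X genes were 1.21 and 1.48. Above them lay col-168 in both tables and col-170 after TOP-2 depletion alone. Less the X median, the row stood at 0.04, 0.80, 0.43 and 0.69 after TOP-2 depletion and at 0.21, 0.98, 0.58 and -0.37 after TOP-1 depletion, and col-168 then passed in neither, as given above. On chromosome V col-141 and col-142 had values above 0 in both tables, while their neighbour col-143 was at -2.55 ± 1.22 and -1.14 ± 1.06 in the authors' deposited tables, with means of 9.14 and 11.03, and passed in neither.

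Other neighbours went apart. The widest gap after TOP-2 depletion was between col-33 at 2.91 ± 0.65 and col-34 at -3.10 ± 0.43, both past the test in the authors' deposited table. The widest after TOP-1 depletion was around col-20, at 7.27 ± 0.65, whose neighbours col-17 and col-73 stood at -1.12 ± 0.29 and -0.38 ± 0.39 in the authors' deposited table. On chromosome II the row of col-79, col-39 and col-80 had values of -2.03 ± 0.55, -0.70 ± 0.55 and -2.38 ± 0.41 after TOP-2 depletion in the authors' deposited table, with the abundant middle gene, at a mean of 9209, not passing. In the authors' deposited table of TOP-1 depletion the row was at -2.18 ± 0.46, -0.18 ± 1.03 and -0.47 ± 0.38, and col-79 alone passed. On chromosome V col-149 was at -2.48 ± 0.34 and col-150 at 0.72 ± 0.64 in the authors' deposited table of TOP-2 depletion.

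**Figure D5:**
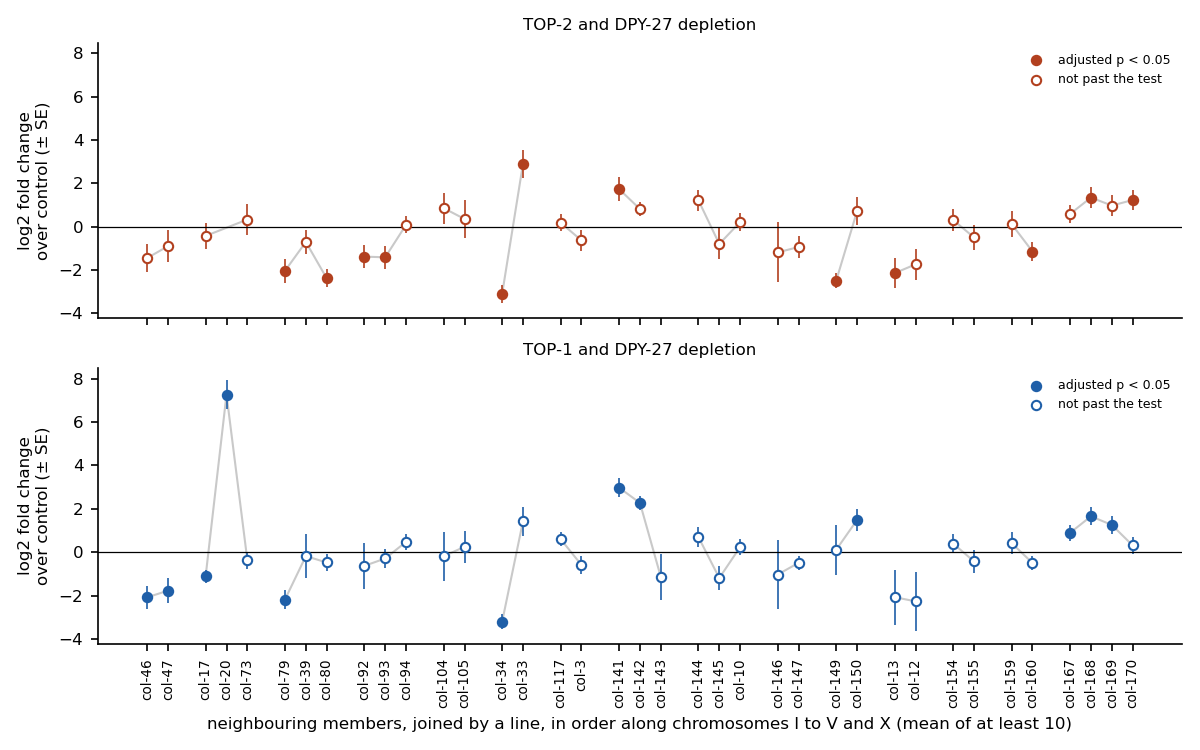
Log2 fold change over the control (points, with the SE as bars) of neighbouring members with a mean of at least 10, after TOP-2 depletion (above) and TOP-1 depletion (below), in order along the chromosomes, with grey lines joining neighbours and filled points at an adjusted p under 0.05. The row from col-167 to col-170 at the right lies above 0 in both panels, while col-34 and col-33 lie on opposite sides of 0, at -3.10 and 2.91 in the upper panel.

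Some members are known for their stage or kind. The dauer collagen col-2 had means of 0.842 and 0.827 in the TOP-2 and TOP-1 tables and no adjusted p. An abundant member known to respond to BMP-type signals, col-41 (T10B10.1, X), was at 0.04 ± 0.62 (adjusted p 0.976) and -0.94 ± 0.31 (adjusted p 0.0103) in the authors' deposited tables of TOP-2 and TOP-1 depletion. The membrane-spanning col-99 was at -0.65 ± 0.38 (adjusted p 0.245) and -1.12 ± 0.38 (adjusted p 0.013) in the authors' deposited tables.

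Other genes of the cuticle pathway were read beside the members. Of the genes that fold, modify, export and trim collagen chains, 3 of 14 tested fell after TOP-2 depletion and 4 of 14 after TOP-1 depletion, with list medians of -0.39 and -0.55. After either depletion these were dpy-18 and phy-2, which encode alpha subunits of prolyl 4-hydroxylase, and fkb-5, a peptidyl-prolyl isomerase. After TOP-1 depletion sec-23, of the COPII coat of export vesicles, fell as well. The authors' deposited tables had dpy-18 at -1.36 ± 0.34 and -1.55 ± 0.35, and phy-2 at -1.06 ± 0.35 and -1.57 ± 0.32. For fkb-5 the authors' deposited tables gave -1.72 ± 0.48 and -1.73 ± 0.41, and for sec-23 -0.58 ± 0.35 and -1.87 ± 0.34. The proteases bli-4 and dpy-31 passed in neither table, and neither did pdi-2, at -0.40 ± 0.33 and -0.54 ± 0.34 in the authors' deposited tables. Of 4 genes of cross-linking, tsp-15, a tetraspanin that acts with the dual oxidase BLI-3, rose after TOP-2 depletion, at 1.23 ± 0.40 in the authors' deposited table, and none passed after TOP-1 depletion in the authors' DESeq2 test (1 higher at an unadjusted p under 0.05).

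Transcription factors known to act on cuticle genes fell in 2 of 10 cases after TOP-2 depletion, lin-26 and blmp-1, and in 6 of 10 after TOP-1 depletion, with list medians of -0.70 and -1.30. The factor of epidermal fate lin-26 was at -1.01 ± 0.31 and -1.57 ± 0.32 in the authors' deposited tables. In the authors' deposited tables blmp-1, a zinc finger factor of the Blimp-1 kind, was at -1.28 ± 0.38 and -1.99 ± 0.36, and bed-3, a zinc finger factor needed for moulting, at -0.74 ± 0.55 and -2.34 ± 0.37. After TOP-1 depletion lin-26, nhr-23, grh-1 and lin-29 were the other 4, the authors' deposited table having nhr-23, a nuclear receptor of the moulting cycle, at -1.17 ± 0.47. Cuticle collagens named for body shape, such as dpy-7 and sqt-3, fell in 1 of 19 cases after TOP-2 depletion and in 16 of 19 after TOP-1 depletion, with list medians of -1.17 and -1.47. The one past the test after TOP-2 depletion was lon-3, at -1.61 ± 0.60 and -1.30 ± 0.36 in the authors' deposited tables. For sqt-1 the authors' deposited tables gave -1.47 ± 0.62 and -2.27 ± 0.33, and for dpy-7 -1.22 ± 0.59 and -1.85 ± 0.46, with wider errors after TOP-2 depletion. None of the 19 passed the test of the difference between the depletions (Wald z, 0 at an unadjusted p under 0.05). Collagens outside the cuticle, the basement membrane genes emb-9, let-2 and cle-1 and the touch neuron collagen gene mec-5, had 0 of 4 past the authors' DESeq2 test after either depletion (2 higher at an unadjusted p under 0.05 after TOP-2 depletion and 0 after TOP-1 depletion), with list medians of 0.52 and 0.05.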

How the data were processed

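RNA sequencing was analysed from 2 tables that the authors deposited, 1 for each depletion, with no value per library. The column baseMean, taken as a signal, is the authors' mean normalized count over all libraries compared, per the file headers. The authors also deposited the log2 fold change of depletion over control with its SE, the Wald score, the p-value and the p-value adjusted over the table. The authors' column names are the ones DESeq2 writes. Per the submitters' processing notes, CASAVA 1.8, HISAT2 2.2.1, HTSeq 0.13.5, Cufflinks 2.2.1 and DESeq2 1.30.0 were used by the authors, in roles the notes leave out. Libraries were stranded (dUTP), per the labels' protocols. Whether strand entered the counting, how reads with several matches were handled and which genome build was used are not given in the sources used here. Near-identical or overlapping collagens are therefore uncertain one by one, and coordinates are left out. Library depth is unknown. Summed over genes, the mean normalized counts reach 15781972 (TOP-2) and 15729010 (TOP-1), and the SEs set the precision.

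Symbols, coding length and gene order came from Ensembl release 115 (WBcel235), which matched 98.1% of 17491 names. Difference tests were computed in Python 3.11.15 with scipy 1.17.1 and tested on simulated data. The members, the gene lists and the rules were chosen with earlier results of these data known. Genes were named by rule: in each table the 10 lowest and 10 highest called members of mean at least 50, the 8 with the smallest p of the difference, the 8 highest per kb, and a stage list. In that list the symbols col-1 and col-7 matched no row. Matching was by current symbol, so a gene carried under another name would not be found this way. Members named outside this rule (such as the low-level risers, neighbours and members of wide SE) were chosen after their values were seen. Alternatives were stricter thresholds, other floors, other adjustments and centring. Protein families and promoter motifs were not analysed here.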

Additional observations from a re-analysis of the deposited data

Results flagged for a closer look

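The log2 fold change of col-101 differed by -4.001 ± 0.70 between TOP-2 depletion and TOP-1 depletion (Wald z, adjusted p 0.000175 by Benjamini-Hochberg over 13027 genes), so that the effects of the depletions were unlike by a test of the difference itself. It was the 1 member of 97 tested that did so, and over all genes 15 did.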

How the results depend on the processing

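At an adjusted p under 0.01, 6 members were higher and 13 lower after TOP-2 depletion, and 10 higher after TOP-1 depletion. With a mean of at least 100 the higher members numbered 7 and 9, and the X minus autosomal shifts of members were 0.87 and 0.90 for the TOP-2 and the TOP-1 depletion. Over every row the members' medians were -0.63 and -0.18, the median difference between the depletions was -0.15 against -0.04 above the floor, and the shift after TOP-1 depletion was 1.23. With a correlation of 0.5 between the fold changes 4 members were lower and 1 higher after TOP-2 than after TOP-1 depletion, and over all genes 321 in place of 15 differed, against 7 with the X or autosomal median subtracted and 12 at a mean of at least 100. The cause of these changes was not tested, other than that a stricter threshold or floor leaves fewer members and a correlation narrows the error. No sign turned among the medians and shifts of the members or among the called values of named members. Values short of a call could turn, such as col-170 after TOP-1 depletion, at 0.31, and at -0.37 with the X median subtracted. Subtracting the X or autosomal median took 5 of 74 values of named members out of their call and brought 3 in, and adjusting over every row took out 1. Without members of SE above 1, a setting chosen after seeing the data, the medians were -0.70 and -0.47. Counting members of near-identical protein once was not run. No paired analysis was possible because the tables hold no value per library, and leaving out a replicate was likewise not possible.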
